A study of Mus musculus with 7 samples.

Results

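Skeletal muscle precursors and myocytes of the mouse nose at embryonic day 14.5 were described from droplet single-cell RNA sequencing. A cell was counted as a muscle cell where it held at least 1 unique molecular identifier (UMI, 1 captured transcript) of at least 2 of the 4 genes Myod1, Myog, Myf5 and Chrna1. By this rule, 92 of 31465 kept cells (0.292%) were muscle cells. Cells with under 500 genes, or with over 10% of their UMIs from mitochondrial genes, had been removed. Members were thus chosen by measured UMI counts of these 4 genes, so the levels below are descriptions, and no test was made of a difference between these cells and the rest.

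Papain and collagenase were used to free the cells of whole noses, which were then stored frozen before capture on the 10x Genomics platform. The wild-type group (WT) comprised 5 libraries of CD1 IGS embryos, an outbred stock, with no treatment named. The second group came from 1 ProKR2iCre/R26tdTomato nose on a B6;SJL background. Its driver allele is Prokr2em1(cre)Cfe, and its reporter allele is Gt(ROSA)26Sortm14(CAG-tdTomato)Hze, of a Cg strain. There, Cre recombinase made from the Prokr2 gene switches on the red protein tdTomato from the Rosa26 locus, so cells that have ever expressed the driver carry the label. That nose gave a library of sorted and a library of unsorted cells, and the sample labels do not say which is which. As they are not replicates, Prokr2Cre library 1 and Prokr2Cre library 2 are given apart. Groups thus differ in strain as well as in the transgenes.

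Skeletal muscle arises from progenitors marked by Pax7 or Pax3 that switch on Myf5 and Myod1, the factors that commit a cell to the muscle fate. Committed myoblasts then express Myog (myogenin), leave the cell cycle, build sarcomeres and fuse into multinucleated fibres. Most muscles of the head, with those of the tongue among the exceptions, do not come from Pax3-dependent somites. They rely upstream on other regulators, among them Tbx1, Msc and Isl1. A droplet method captures single cells, and large fibres are not expected to enter a droplet intact.

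Total UMIs were lowest in Prokr2Cre library 2, at 16773781, and highest in WT replicate 1, at 89800259, while the median per barcode was higher in the former, at 12433 against 8028. WT replicates 3 and 4 shared 7386 cell barcodes and every other pair at most 34. Replicate 3 was therefore left out, and the data stand for 6 captures, 4 of them WT. In WT replicate 1 the muscle cells held more UMIs per cell than the rest, with a median of 16701 UMIs against 8990 in other kept cells. The sets with and without Myog in that library were close in depth, at medians of 16499 and 17213 UMIs.

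Muscle cells lay mostly in a single library. WT replicate 1 held 63 of them among 7790 kept cells, a share of 0.809% (exact binomial 95% interval 0.622% to 1.03%). WT replicate 2 held 8 of 10496 (0.0762%), replicate 4 held 1 of 7029 (0.0142%) and replicate 5 held 4 of 3250 (0.123%). These intervals and all others given below cover counting error only. The WT mean was 0.256% ± 0.371 (SD, n = 4 captures), a spread wider than the mean itself, and WT replicate 1 held 68.5% of all muscle cells. Its share was 6.57 times that of the next WT capture, and its interval did not overlap those of the other 3.

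Prokr2Cre library 1 held 2 muscle cells of 1789 (0.112%), within the range of WT replicates 2, 4 and 5. Prokr2Cre library 2 held 14 of 1111, the highest share at 1.26% (0.691% to 2.11%). That interval overlapped the interval of WT replicate 1 and of no other library among the 6. That order did not hold without the muscle cells that also held markers of another cell class, defined further below, which were 11 of the 14 in Prokr2Cre library 2 and 30 of the 63 in WT replicate 1. The share was then 3 of 1100 cells (0.273%, 0.0563% to 0.795%) in Prokr2Cre library 2 and 33 of 7760 (0.425%, 0.293% to 0.597%) in WT replicate 1, with overlapping intervals. The size of the gap changed with the rule and with thinning. After every cell was thinned to 2000 UMIs, 13 of 7522 cells passed the rule in WT replicate 1 (0.173%) and 2 of 2997 in WT replicate 5 (0.0667%). The ratio to the next WT capture was then 2.59, resting on these 13 and 2 cells, and the WT mean 0.0649%. With at least 3 of the 4 rule genes the ratio was 15 and the WT mean 0.13%, and with at least 2 UMIs of each of 2 of them the ratio was 13.5 and the mean 0.146%.

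**Figure D1:**
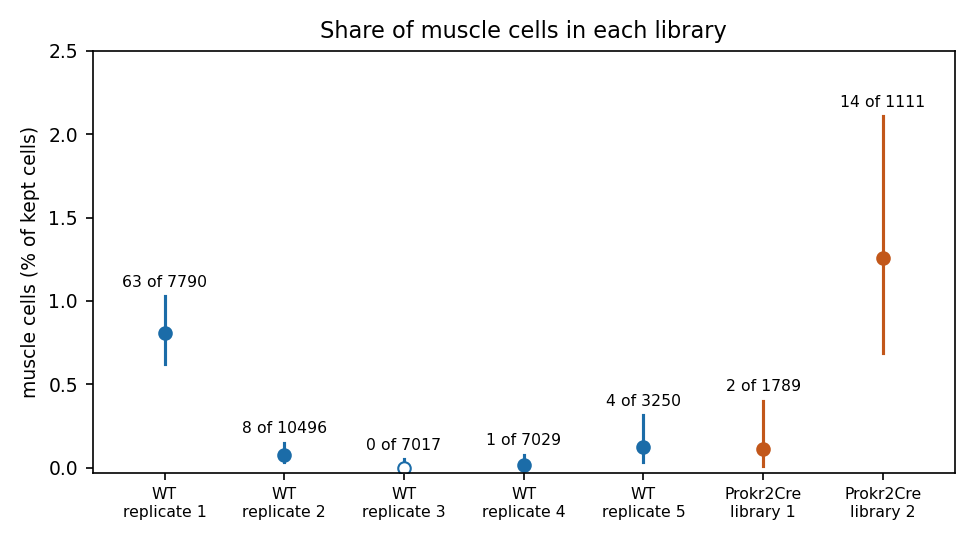
Share of kept cells that were muscle cells (y axis, percent) in each of the 7 libraries (x axis), WT in blue and Prokr2Cre in orange. Points are shares, bars are exact binomial 95% intervals and numbers are muscle cells of kept cells. WT replicate 1 (0.809%) and Prokr2Cre library 2 (1.26%) stand above the other libraries, and WT replicate 3, left out elsewhere, held none.

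The share depended on how readily cells were taken as doublets. Removing the barcodes with the highest doublet scores left 60 muscle cells in WT replicate 1 and all 14 in Prokr2Cre library 2. It removed all 8 in WT replicate 2, the only 1 in replicate 4 and both in Prokr2Cre library 1, and left 3 of 4 in replicate 5.

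The rule genes were present in different mixtures. Myod1 (ENSMUSG00000009471; GRCm38 chromosome 7, 46376474 to 46379099, plus strand) was the most widely shared, with a UMI in 58 of 63 muscle cells of WT replicate 1. Myog (ENSMUSG00000026459; chromosome 1, 134289989 to 134292548, plus strand) was present in 51 and Chrna1 (ENSMUSG00000027107; chromosome 2, 73563215 to 73580338, minus strand), a subunit of the muscle acetylcholine receptor, in 40. Myf5 (ENSMUSG00000000435; chromosome 10, 107482908 to 107486134, minus strand) was present in 18. Each gene was at 0 in the 112 endothelial cells of the library, at a median depth of 20680.5 UMIs. That allows a share of cells with a UMI of up to 2.68% there, and sets no limit on cells that express it. Cells that passed the rule were left out of this endothelial set, so the 0 is partly fixed by the rule. By the class limits given further below, 2 of the 63 muscle cells held endothelial markers.

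Over all 92 muscle cells the most frequent combination was Myod1 with Myog and Chrna1, in 39 cells. Myod1 with Myog alone followed in 21 cells, and Myod1 with Myf5 alone in 12. All 4 genes were found together in 6 cells. Cells with Myf5 thus mostly lacked Myog: of the 18 cells without a Myog UMI, 12 held Myod1 with Myf5, 3 held Myod1, Myf5 and Chrna1, 2 held Myod1 with Chrna1 and 1 held Myf5 with Chrna1. Since a cell without Myog needed 2 of the other 3 genes, these mixtures are partly fixed by the rule. With both sets held to at least 2 of Myod1, Myf5 and Chrna1, an alternative chosen after the data were seen, the sarcomere median given below was 4.06 in place of 3.37.

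Myog was the most abundant of the 4 in WT replicate 1, with 1073 UMIs in muscle cells and at most 69 in a single cell. Muscle cells held 96.1% of all its UMIs in that library, 92.2% of those of Myod1 and 88.1% of those of Chrna1. For Myf5 the figure was 39.0%, since 23 cells held Myf5 as their only rule gene. Myf5 therefore marked few of the chosen cells, and its UMIs lay largely outside them.

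Cells just outside the rule were intermediate. In WT replicate 1, 84 kept cells held exactly 1 rule gene, 27 held exactly 2 and 36 held 3 or 4. Actc1, which encodes the cardiac alpha-actin that embryonic skeletal muscle also makes, was present in 0.68% of cells with none, 16.7% of cells with 1, 85.2% of cells with 2 and 97.2% of cells with 3 or 4. Msc, a repressor of the same basic helix-loop-helix family as Myod1, was present in 35.7% of cells with 1 rule gene, 77.8% with 2 and 41.7% with 3 or 4. The share with Actc1 thus climbed with the number of rule genes, and the share with Msc was lower again at 3 or 4. The contractile gene Ttn was present in 0.576%, 19.0%, 88.9% and 88.9% of cells in these groups. Median depth rose along them too, at 8967, 12432, 16364 and 17146 UMIs, and its part in the shares was not tested.

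Genes that the rule did not use carried the muscle label. In WT replicate 1, Actc1 had 2530 CPM (UMIs of a gene scaled to 1000000 UMIs of the set) in muscle cells and 2.06 CPM in other kept cells. A UMI of it was present in 92.1% of muscle cells, 0.854% of other cells and 0 of 112 endothelial cells. After every cell was thinned to 2000 UMIs, the shares were 74.6%, 0.282% and 0.0%. Desmin (Des, the muscle intermediate filament) stood at 256 against 3.49 CPM, titin (Ttn, the giant spring of the sarcomere) at 796 against 1.57 CPM and nebulin (Neb, the ruler of the thin filament) at 379 against 1.35 CPM. Sarcomere genes of the list reached a median of 11 detected per muscle cell, with a lowest of 5 and a highest of 31, against a median of 2 in cells without any rule gene.

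Of 2884 genes with at least 50 CPM in muscle cells or in other kept cells of WT replicate 1, 123 (4.26%) were higher in muscle cells past 2-fold and 334 (11.6%) were lower. Folds were taken on log2(CPM + 10), which understates the change of low genes. Sarcomere genes made up the largest group: 17 of the 18 measured were higher, with a median log2 ratio of 5.23 against -0.03 over all genes, and the exception was Tpm1, a tropomyosin of many tissues, at 1230 against 900 CPM. All 4 measured genes of fusion and myoblast adhesion were higher, among them Mymk and Mymx, which encode the membrane proteins that drive myoblast fusion. Mymk stood at 153 against 0.153 CPM and Mymx at 306 against 0.376 CPM. This contrast is the one the rule was built on, so nothing further is read from these counts.

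The highest ratios outside the lists belonged to genes of several functions. Fitm1, which helps form lipid droplets in muscle, stood at 166 CPM in muscle cells and 1.2 CPM in others, and was present in 60 of 63 muscle cells. Mrln, encoding the micropeptide myoregulin that restrains the calcium pump of the sarcoplasmic reticulum, stood at 162 against 4.58 CPM. Arpp21, a cAMP-regulated phosphoprotein, stood at 150 against 1.44 CPM. These genes were spread widely: the 5 richest muscle cells held 19.9% of the Fitm1 UMIs and 25.8% of the Mrln UMIs.

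Further genes of this kind were Nes (nestin, an intermediate filament of immature cells, 290 against 17.3 CPM), Car3 (carbonic anhydrase 3, 284 against 15.8 CPM) and Rbm24 (an RNA-binding splicing regulator of muscle, 157 against 12.5 CPM). Vgll2, a cofactor of the TEAD transcription factors, stood at 77.6 against 0.587 CPM, and Ank1 (an ankyrin that anchors membrane proteins) at 73.3 against 0.893 CPM. Mylk4, a myosin light chain kinase, stood at 88.3 against 0.211 CPM, and Nexn, a filament protein of the Z-disc, at 119 against 10.1 CPM. Fndc5, the precursor of irisin, stood at 108 against 8.14 CPM, Hspb2, a small heat shock protein, at 124 against 5.01 CPM, and the cytokine gene Il17b at 90.5 against 0.458 CPM. Lix1 (154 against 15.2 CPM) and Traf3ip3 (63.2 against 1.36 CPM) completed the 15. The 5 richest cells held 84.9% of the Il17b UMIs, 67.4% of those of Hspb2 and 65.1% of those of Car3.

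Regulators of the progenitor list differed in their levels. Msc stood at 140 CPM in muscle cells of WT replicate 1 against 4.54 CPM in others, and Pitx3, a homeobox factor of differentiating muscle, at 58.2 against 0.493 CPM. Both were higher past 2-fold. Tbx1 (28.0 against 4.37 CPM, in 16 of 63 cells) and Isl1 (33.0 against 9.08 CPM, in 21 of 63 cells), both regulators of pharyngeal muscle, lay below the 50 CPM minimum, as did Lhx2, another regulator of pharyngeal muscle, which went the other way with 3 UMIs in 3 of 63 cells, 2.15 against 20.7 CPM. Tbx1 was also present in other cells, with a UMI in 37.5% of endothelial cells.

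Pax3, which specifies somite-derived progenitors, had 6 UMIs in 3 of 63 muscle cells, 4.31 CPM against 33.0 CPM in other cells. Lbx1, a homeobox gene of migrating limb and tongue precursors, had 1 UMI. Of 20 Hox genes of trunk position, 19 had no UMI in the muscle cells of WT replicate 1 and Hoxb5 had 1. In other kept cells of the library the Hox genes summed to 0.881 CPM, so near-absence of Hox genes was shared with the whole nose. The transcriptional cofactor gene Eya1 stood at 18.0 against 31.0 CPM and Eya4 at 26.6 against 20.7 CPM, both within 2-fold of other cells.

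Within the muscle cells, the presence of Myog marked a wide range of states. In WT replicate 1, 51 of 63 muscle cells (81.0%, interval 69.1% to 89.8%) held Myog and 12 did not. The figure was 6 of 8 in WT replicate 2, 1 of 1 in replicate 4 and 2 of 4 in replicate 5, and 60 of 76 (78.9%) over the WT captures. It was 1 of 2 in Prokr2Cre library 1 and 13 of 14 (92.9%, 66.1% to 99.8%) in Prokr2Cre library 2. The intervals of all these libraries overlapped. WT replicate 1 alone had at least 10 cells of each kind, so all ratios between them below come from that library, compare sums of counts and have no replicate check.

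Of 2615 genes measured in this contrast, 173 (6.62%) were higher in Myog-positive cells past 2-fold and 63 (2.41%) were lower. The median log2 ratio over all measured genes was -0.07. A gene that reached the 50 CPM minimum in only 1 of the sets had to lie on that side, so list counts below are read with the number that reached it in both. The rule genes are left out of these counts: Chrna1 stood at 132 CPM in Myog-positive and 20.2 CPM in Myog-zero cells, Myod1 at 163 and 60.6 CPM, and Myf5 at 7.86 and 84.9 CPM.

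**Figure D2:**
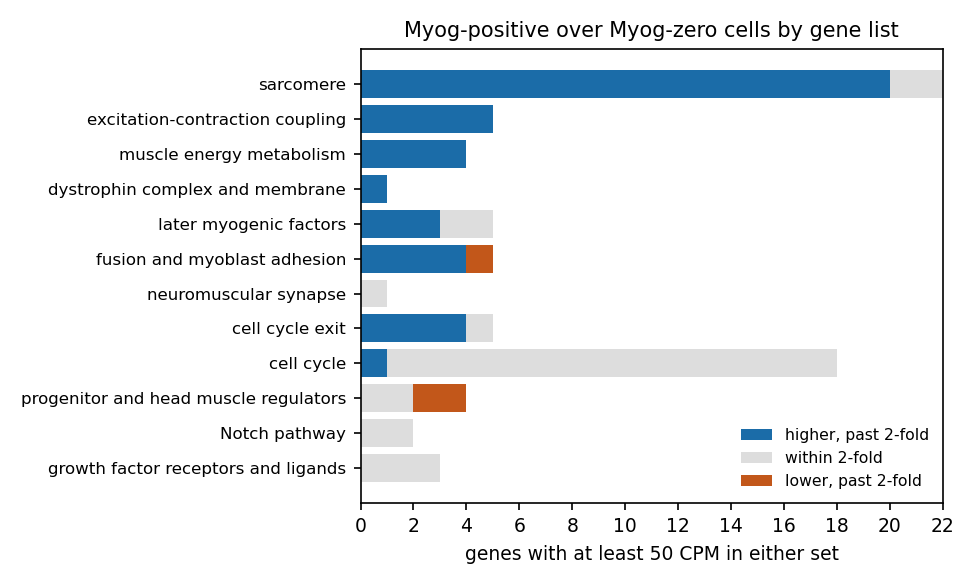
Number of genes (x axis) of each list (y axis) with at least 50 CPM in Myog-positive or Myog-zero muscle cells of WT replicate 1, divided into those higher past 2-fold in Myog-positive cells (blue), lower past 2-fold (orange) and within 2-fold (grey). Of the sarcomere genes 20 of 22 were higher, and of the cell-cycle genes 17 of 18 were within 2-fold.

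Of 22 measured sarcomere genes, 20 were higher in Myog-positive cells past 2-fold and none was lower, with a median log2 ratio of 3.37. Of the 22, 15 reached the minimum through Myog-positive cells alone. Among the 7 that reached it in both sets, Actc1, Ttn, Tpm2, Tnni2 and Tnnt1 were higher past 2-fold, and Des and Tpm1 were within it. As ratios without the added 10 CPM, and with the 6 genes at 0 in Myog-zero cells set at their bound, the median was 3.31. Cell by cell, the summed level of the list was 1310, 2265 and 3570 CPM (lowest, median and highest) in Myog-zero cells and 1500, 6140 and 140000 CPM in Myog-positive cells. Thus 43 of 51 Myog-positive cells lay above the highest Myog-zero cell, and 8 lay within the range of the Myog-zero cells.

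The troponins, the calcium switch of the thin filament, gave several of the highest ratios. Tnnt2 (ENSMUSG00000026414; chromosome 1, 135836354 to 135852260, plus strand), the cardiac-type troponin T that embryonic skeletal muscle also makes, had 880 UMIs in 34 of 51 Myog-positive cells and none in Myog-zero cells, and was at least 63.4-fold higher. The floor behind such bounds is 3 UMIs over the Myog-zero set, and it is used only for genes without a UMI there. A gene with 1 to 3 UMIs in that set has its ratio with a counting interval, which is wide. Tnni1 (slow troponin I) stood at 421 CPM against 0 and was at least 34.7-fold higher. Tnnc1 (63.7-fold, interval 21.7 to 310) and Tnnc2 (51.4-fold, 14.2 to 426) were found in only 9 Myog-positive cells each. Tnnt1, slow troponin T, was by contrast present in all 51 Myog-positive and 10 of 12 Myog-zero cells, at 1510 and 623 CPM, a ratio of 2.42 (2.05 to 2.87).

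Among actins and myosins, Actc1 (ENSMUSG00000068614; chromosome 2, 114047282 to 114053548, minus strand) had 3040 CPM in Myog-positive and 206 CPM in Myog-zero cells, a ratio of 14.7 (11.2 to 19.8), and was already present in 8 of 12 Myog-zero cells. Acta1, the skeletal alpha-actin of more mature muscle, had no UMI in Myog-zero cells and 660 UMIs in 16 Myog-positive cells, at least 47.5-fold higher. Myh3 (ENSMUSG00000020908; chromosome 11, 67078300 to 67102291, plus strand), the embryonic myosin heavy chain, had 497 UMIs in 13 cells and was at least 35.8-fold higher. Of the myosin light chains, Mylpf stood at 2990 against 36.4 CPM (82.1-fold, 43.2 to 180), Myl1 at 491 against 8.09 CPM, from 2 UMIs (60.7-fold, 16.7 to 503) and Myl4 at 728 against 12.1 CPM (60.0-fold, 20.5 to 292). Mylpf was also found in 22.3% of endothelial cells, at 4.9 CPM in all cells outside the muscle set. The adult fast myosins Myh1 and Myh2 had 2 UMIs and 1 UMI.

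Few cells carried the mature part of this list. The 5 richest muscle cells held 95.9% of the Acta1 UMIs, 92.4% of the Myh3 UMIs, 90.7% of the Mylpf UMIs and 97.5% of the Tnnc1 UMIs. A single cell held 63.6% of the Myh3 UMIs. For Actc1 the 5 richest cells held 43.1%, for Neb 43.2% and for Tnnt1 35.2%. The ratios of the mature genes thus describe a handful of cells, while Actc1 (50 of 51 Myog-positive cells), Neb (47 of 51) and Ttn (47 of 51) were spread over nearly all. Neb was 11.2-fold (6.04 to 23.5) and Ttn 7.04-fold (4.98 to 10.3) higher in Myog-positive cells. Of the 2 genes within 2-fold, Des stood at 277 and 158 CPM and Tpm1 at 1320 and 792 CPM.

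**Figure D3:**
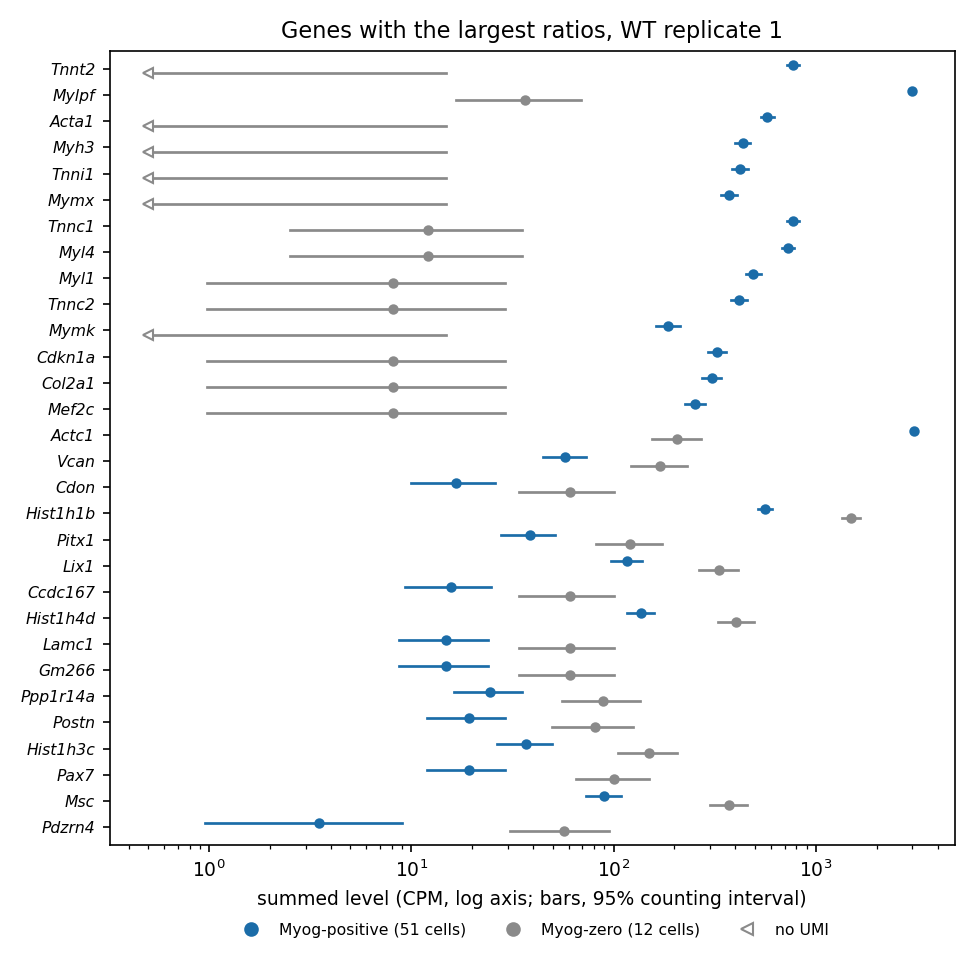
Summed level (x axis, CPM, log axis) in Myog-positive (blue) and Myog-zero (grey) muscle cells of WT replicate 1 for the 15 genes with the highest and the 15 with the lowest ratio (y axis). Bars are 95% counting intervals and open triangles mark genes without a UMI. Tnnt2, Acta1, Myh3, Tnni1, Mymx and Mymk had no UMI in the 12 Myog-zero cells, and Pax7 and Msc were higher there.

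The basic helix-loop-helix factors Myod1, Myf5 and Myog bind the E-box, the letters CANNTG. Windows of the 250 bases before the RefSeq start site (build GRCm38.p6) are shown for the rule genes Myog and Chrna1. They are also shown for Tnnt2 and Mylpf, which had the highest ratios between Myog-positive and Myog-zero cells. CANNTG was searched on both strands, which its symmetry makes a single search, and its matches are in capitals. A window was present for 3 of the 4 rule genes, of which that of Myf5 is not shown, and for 27 of the 34 sarcomere genes.
Myog (chr1:134289754-134290003, plus strand): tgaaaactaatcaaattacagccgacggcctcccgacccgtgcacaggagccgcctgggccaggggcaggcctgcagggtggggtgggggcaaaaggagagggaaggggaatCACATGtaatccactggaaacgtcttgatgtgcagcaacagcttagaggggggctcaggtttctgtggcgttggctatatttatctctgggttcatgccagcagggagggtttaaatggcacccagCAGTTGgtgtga
Chrna1 (chr2:73580339-73580588, minus strand): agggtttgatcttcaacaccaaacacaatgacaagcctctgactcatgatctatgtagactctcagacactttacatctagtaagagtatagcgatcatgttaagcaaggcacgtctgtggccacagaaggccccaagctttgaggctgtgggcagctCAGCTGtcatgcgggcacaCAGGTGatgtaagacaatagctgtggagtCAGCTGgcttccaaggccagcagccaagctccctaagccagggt
Tnnt2 (chr1:135836084-135836333, plus strand, the upstream one of its 2 windows): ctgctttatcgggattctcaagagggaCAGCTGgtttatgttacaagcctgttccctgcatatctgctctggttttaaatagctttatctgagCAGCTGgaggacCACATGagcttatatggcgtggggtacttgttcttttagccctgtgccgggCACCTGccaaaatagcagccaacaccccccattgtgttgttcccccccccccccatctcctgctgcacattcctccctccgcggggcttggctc
Mylpf (chr7:127211358-127211607, plus strand): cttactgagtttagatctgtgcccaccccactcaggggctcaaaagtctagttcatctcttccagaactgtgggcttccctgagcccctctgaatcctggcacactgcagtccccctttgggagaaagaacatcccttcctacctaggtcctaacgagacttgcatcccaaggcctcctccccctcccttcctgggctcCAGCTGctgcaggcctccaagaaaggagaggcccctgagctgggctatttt

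The form CAGCTG, a subset of CANNTG, occurred 2 times in the window of Chrna1, at 92 and 44 bases before the start site, 2 times in that of Tnnt2 and 1 time in that of Mylpf, at 51 bases. The Myog window held 2 other forms of the motif, CACATG at 138 bases and, at 12 bases, CAGTTG. Over the sarcomere genes, CAGCTG was present in 9 of the 27 with a window (33.3%) and in 14.7% of all 27025 genes. CANNTG was present in 74.1% of these sarcomere genes and 69.3% of all genes, so its presence alone distinguishes few genes. Among cell-cycle genes with a window, CAGCTG was found in 1 of 15. These are matches of letters, and no binding was measured.

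Most listed genes of calcium handling and energy supply lay under 50 CPM. Of 19 genes of excitation-contraction coupling 5 were measured, all of them through the Myog-positive set alone, so that their direction was fixed by the minimum. Ryr1, the calcium release channel, stood at 62.9 against 12.1 CPM in 29 of 51 cells, a ratio of 5.19 (1.70 to 25.7). Atp2a1, the calcium pump, stood at 59.4 CPM against 0, at least 4.9-fold higher. Sln (sarcolipin, a regulator of that pump) was at least 9.07-fold higher, but 1 cell held 72.2% of its UMIs. Mrln, a regulator of the same pump, was alike in both sets at 158 and 178 CPM, a ratio of 0.889 (0.636 to 1.27).

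The 4 measured genes of energy metabolism, Ckb, Cox6a2, Eno3 and Pgam2, also reached the minimum through the Myog-positive set alone. Ckb, the brain-type creatine kinase, stood at 284 against 32.3 CPM (8.78-fold, 4.4 to 20.5). Ckm, the muscle-type enzyme, had 31 UMIs in 4 cells, of which 1 cell held 87.1%. Of the dystrophin complex only Cav3, the muscle caveolin, reached 50 CPM, at 69.9 against 12.1 CPM, and dystrophin itself (Dmd) had 7 UMIs in all.

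Of 5 measured later regulators of differentiation, 3 reached the minimum in Myog-positive cells alone and 2 in both sets. Mef2c, a partner of the myogenic factors, stood at 253 against 8.09 CPM, from 2 UMIs (31.3-fold, 8.60 to 260), and Mef2a at 93.5 against 20.2 CPM (4.62-fold, 1.92 to 14.5). Klhl41, needed for sarcomere upkeep, stood at 90.0 against 4.04 CPM, from 1 UMI (22.3-fold, 3.91 to 887). Hes6 (313 and 182 CPM) and Nfix (55.0 and 72.8 CPM), which drives the fetal muscle programme, were within 2-fold. Myf6, the fourth factor of the Myod1 family, had 3 UMIs in 3 cells.

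Both fusion genes were found only in Myog-positive cells among the muscle cells of WT replicate 1. Mymk (ENSMUSG00000009214; chromosome 2, 27061636 to 27072179, minus strand) was present in 27 of 51 Myog-positive and 0 of 12 Myog-zero cells, and was at least 15.3-fold higher. Mymx (ENSMUSG00000079471; chromosome 17, 45600971 to 45602102, minus strand) was present in 36 of 51 and 0 of 12, and was at least 30.7-fold higher. Both genes together were found in 26 cells. Cdh15 (M-cadherin, which joins myoblasts) stood at 88.2 against 20.2 CPM (4.36-fold, 1.81 to 13.7) and Jam3, an adhesion molecule, at 90.0 against 28.3 CPM (3.18-fold, 1.49 to 8.11). Cdon, a promyogenic cell surface receptor, lay the other way at 16.6 against 60.6 CPM (0.274-fold, 0.132 to 0.579).

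Genes of the nerve-muscle synapse were low. Rapsn, which clusters acetylcholine receptors, alone of 10 reached 50 CPM, at 114 and 88.9 CPM in Myog-positive and Myog-zero cells, a ratio of 1.29 (0.815 to 2.12). Chrng, the receptor subunit of embryonic muscle, stood at 42.8 and 16.2 CPM (2.65-fold, 0.97 to 10.1). Chrne, which replaces it after birth, had 1 UMI. The embryonic subunit was thus present in 25 of 63 muscle cells, and the adult subunit in 1.

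Some genes that restrain the cell cycle were higher in Myog-positive cells, while none of the measured genes of the cell-cycle list was lower past 2-fold. Of 5 measured exit genes, 4 were higher: Cdkn1a (p21; 326 against 8.09 CPM from 2 UMIs, 40.3-fold, 11.1 to 334), Rb1 (the retinoblastoma protein; 87.3 against 12.1 CPM, 7.20-fold, 2.39 to 35.5), Gadd45g (3.26-fold, 1.90 to 6.06) and Cdkn1c (p57). Cdkn1a and Rb1 reached the minimum in Myog-positive cells alone, so their direction was fixed by it. Counted only over the 3 that reached the minimum in both sets, 2 were higher. Among listed exit genes below it, Cdkn1b stood at 20.1 and 24.3 CPM in Myog-positive and Myog-zero cells. Gadd45a stood at 10.5 and 12.1 CPM and Cdkn2c at 4.37 and 0 CPM. Cdkn1c was abundant everywhere, at 6710 CPM in all 51 Myog-positive cells and 2650 CPM in all 12 Myog-zero cells. Ccnd3, a cyclin D kept in differentiating muscle, stood at 202 and 348 CPM. Of 18 measured cell-cycle genes, 17 were within 2-fold, 1 was higher and none was lower, with a median log2 ratio of -0.27 (-0.29 without the added 10 CPM). The higher one was Ccnd1, with 72.9% of its UMIs in 5 cells.

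Cell-cycle levels differed within the Myog-positive set of WT replicate 1, with the low values among cells of high Myog. The summed level of the 20 cell-cycle genes had a median of 1930 CPM in Myog-zero cells and 2305 CPM in the 16 cells with 1 to 5 Myog UMIs. It was 487 CPM in the 35 cells with more than 5. The sarcomere list ran the other way, at medians of 2265, 4905 and 8740 CPM. Ranges overlapped among all 3 of these sets: cell-cycle levels ran from 595 to 3730 CPM, from 764 to 4060 CPM and from 16.2 to 6190 CPM. Median depths were close, at 17213, 15796 and 16877 UMIs, although a cell with more UMIs in all is also more likely to show more Myog UMIs. In Prokr2Cre library 2 the same limit also divided the cells by depth, with a median of 8251.5 UMIs in the 6 cells with up to 5 Myog UMIs and 42200 in the 8 with more. Cell-cycle medians there were 2040 and 4280 CPM and sarcomere medians 4480 and 7260 CPM, and no difference by Myog is read from them.

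**Figure D4:**
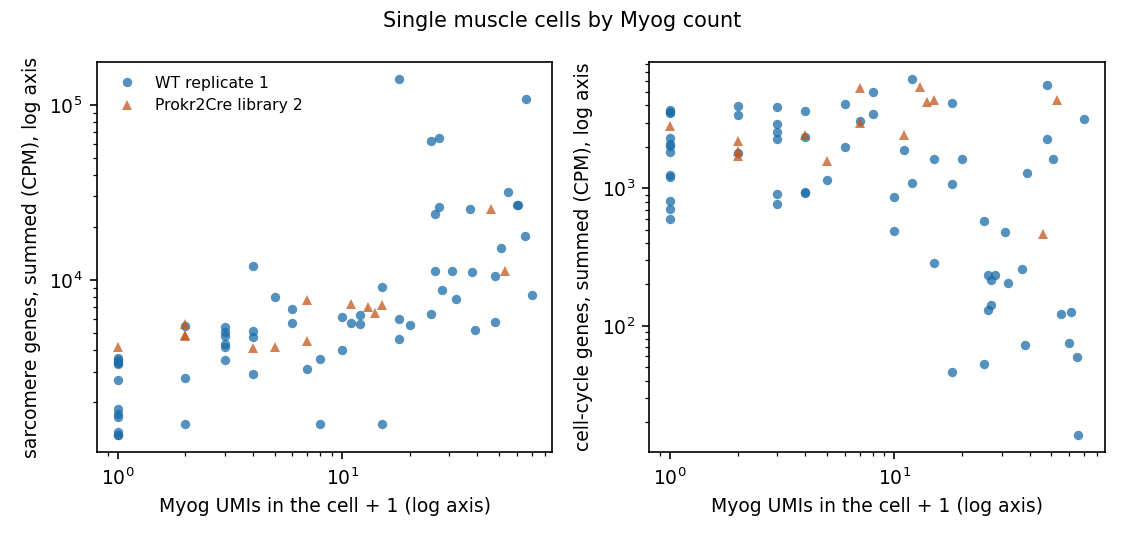
Each point is 1 muscle cell of WT replicate 1 (blue circles) or Prokr2Cre library 2 (orange triangles), by its Myog UMIs plus 1 (x axes, log) and its summed level (y axes, CPM, log) of sarcomere genes (left) or cell-cycle genes (right). In WT replicate 1 the cells above 5 Myog UMIs have a sarcomere median of 8740 CPM and a cell-cycle median of 487 CPM, while in Prokr2Cre library 2 the cells above and up to 5 differ in depth, at medians of 42200 and 8251.5 UMIs.

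Genes of these lists were found together in single cells, doublets included. Of the 63 cells, 37 held Mymk or Mymx, all of them Myog-positive, and 13 of these 37 also held Mki67, a protein of proliferating cells. Of those 13, 3 held at least 10 UMIs of the cartilage or bone genes Col2a1, Col1a1 or Ibsp, and a Mki67 UMI was present in 20.3% of cells outside the muscle set and 42.0% of endothelial cells. Mki67 was found in 18 of 51 Myog-positive and 5 of 12 Myog-zero cells. In the 26 cells with both fusion genes the median cell-cycle level was 234.5 CPM and the median sarcomere level 11650 CPM. The 5 cells with at least 10 Acta1 UMIs had a median sarcomere level of 65100 CPM (5740 to 140000), a median of 25 sarcomere genes detected and a median cell-cycle level of 53.2 CPM (16.2 to 2270). The cell at 5740 CPM, below the Myog-positive median, also held 199 Col2a1 UMIs. Pax7 and Myog were found together in 15 cells, whose median sarcomere level was 4630 CPM. It was 2700 CPM in the 7 cells with Pax7 without Myog and 8740 CPM in the 37 with Mymk or Mymx. These sets overlap: of the 15 cells, 7 also held Mymk or Mymx, again at a median of 4630 CPM. The 14 Myog-positive cells without either fusion gene stood at 4955 CPM, so no order of steps is read from Pax7.

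Of the 4 measured genes of the progenitor list, Msc and Pax7 were lower in Myog-positive cells past 2-fold and none was higher, with a median log2 ratio of -1.38 (-1.51 without the added 10 CPM). Msc (ENSMUSG00000025930; chromosome 1, 14753346 to 14755992, minus strand) was present in all 12 Myog-zero and 24 of 51 Myog-positive cells, at 372 and 90.0 CPM, a ratio of 0.242 (0.181 to 0.324). Pax7 (ENSMUSG00000028736; chromosome 4, 139737062 to 139833528, minus strand) was present in 7 of 12 and 15 of 51, at 101 and 19.2 CPM, a ratio of 0.190 (0.102 to 0.351). Summed over the list, the level ran from 480 to 1380 CPM in Myog-zero cells and from 0 to 1040 CPM in Myog-positive cells, so the ranges overlapped. Msc reached 50 CPM in both sets, and Pax7 in Myog-zero cells alone.

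Other genes among the 15 with the lowest ratios were Pitx1 (a homeobox factor, 38.4 against 121 CPM), Lix1 (116 against 331 CPM), Vcan (versican, a matrix proteoglycan, 57.6 against 170 CPM), Lamc1 (a laminin chain, 14.8 against 60.6 CPM) and Postn (periostin, a matrix protein, 19.2 against 80.9 CPM). Ppp1r14a, an inhibitor of myosin phosphatase, stood at 24.5 against 88.9 CPM, Gm266 at 14.8 against 60.6 CPM and Ccdc167 at 15.7 against 60.6 CPM. Pdzrn4 rested on 1 Myog-zero cell, which held all 14 of its UMIs there. Linker and core histone genes made up the rest: Hist1h1b (560 against 1500 CPM), Hist1h3c (36.7 against 150 CPM) and Hist1h4d (136 against 404 CPM). Histone genes have near-identical copies, and how reads shared by copies were assigned is not given in the sources used here, so single histone values are uncertain. Hist1h1b had 372 UMIs in 11 of 12 Myog-zero cells.

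No measured gene of the Notch and growth factor lists differed past 2-fold. The Notch genes Hes1 (265 and 319 CPM) and Rbpj (169 and 88.9 CPM) were within 2-fold, and Hey1, a Notch target, stood at 10.5 and 40.4 CPM below the minimum. The 3 measured growth factor genes, Igf2, Igf2r and Igfbp5, were within 2-fold, with a median log2 ratio of -0.28. Mstn (myostatin, which limits muscle mass) had 20 UMIs in 8 Myog-positive cells, and Fst, which binds it, had 71.4% of its UMIs in 1 cell. Fgfr4, a receptor of muscle progenitors, stood at 28.8 and 24.3 CPM.

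Some muscle cells also carried genes of other classes. With at least 2 UMIs of each of at least 2 markers taken as holding a class, 30 of 63 muscle cells of WT replicate 1 held some class. Of these, 27 held pericyte and smooth muscle markers and 10 held mesenchyme markers, while 8 held cartilage, bone, endothelium, epithelium, neuron or erythroid markers. The pericyte count rested on Acta2 and Tagln. Acta2, smooth muscle actin, which embryonic skeletal muscle also makes, was present in all 63 cells at 1960 CPM against 101 CPM in other cells. The defining pericyte genes were near 0: Myh11 had no UMI, Rgs5 had 1, Cspg4 had 7 and Pdgfrb had 9. All 4 immune markers and the glial markers Sox10 and Foxd3 had no UMI. Erbb3, also on the glial list, had 45 UMIs in 25 of 63 cells, at 32.3 CPM against 9.95 CPM in other cells. The 4 glial genes summed to 34.5 CPM in muscle cells and 31.3 CPM in other cells, and no muscle cell held the glial class.

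Genes of cartilage and bone entered the Myog-positive set through few cells. Col2a1, the cartilage collagen, was among the 15 highest ratios at 307 against 8.09 CPM, from 2 UMIs (37.9-fold, 10.4 to 314), and 5 cells held 98.3% of its UMIs. Ibsp, a bone matrix gene, stood at 336 against 16.2 CPM with 98.5% of its UMIs in 1 cell, and Col1a1 at 314 against 16.2 CPM with 78.5% in 1 cell. All 3 were lower in muscle cells than in other kept cells, where Col2a1 stood at 962, Ibsp at 1300 and Col1a1 at 1510 CPM. Without the 8 cells that held such classes the sarcomere median was 3.86, 162 genes were higher and 83 were lower. Whether these cells are doublets was not tested further.

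The muscle cells of Prokr2Cre library 2 held some contractile genes near the level of WT replicate 1 and others far below it. That set of 14 cells had a median of 32659.5 UMIs. It is compared with the 63 of WT replicate 1 as 1 library on each side. Strain, transgenes, possible cell sorting, gene annotation and library thus cannot be told apart. The annotation listed 32285 genes for Prokr2Cre library 2 and 31053 for WT replicate 1, and only shared genes were compared. Against the other cells of its own library, 351 (7.92%) of 4433 measured genes were higher in these muscle cells past 2-fold and 1124 (25.4%) were lower. Of 3196 genes with at least 50 CPM in the muscle cells of either library, 522 (16.3%) were higher and 117 (3.66%) were lower past 2-fold in the Prokr2Cre cells. Of 19 measured sarcomere genes 12 were lower and 1 was higher, but 7 of the 19 reached 50 CPM in WT replicate 1 alone and 1 in Prokr2Cre library 2 alone. Of the 11 that reached it in both, 5 were lower past 2-fold (Mylpf, Tnni1, Tnni2, Tnnt2 and Tpm2) and none was higher. Over the 14 cells, the summed level of the whole sarcomere list was 4080, 6060 and 25600 CPM (lowest, median and highest). These values lay inside the range of the WT replicate 1 cells.

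The difference divided the sarcomere genes. Actc1 stood at 2270 CPM in Prokr2Cre library 2 and 2530 CPM in WT replicate 1, a ratio of 0.897 (0.832 to 0.965). Ttn (0.803, 0.697 to 0.922), Neb (1.09, 0.904 to 1.3), Des (1.55, 1.28 to 1.88) and Tnnt1 (1.33, 1.21 to 1.45) were also within 2-fold. Mylpf stood at 51.1 against 2460 CPM (0.0208, 0.0127 to 0.0321), Acta1 at 7.67 against 474 CPM (0.0162, 0.00333 to 0.0475) and Tnnt2 at 113 against 632 CPM (0.178, 0.128 to 0.241). Of the sarcomere genes with at least 50 CPM in WT replicate 1, 8 stood below 0.1 of that level, a limit chosen after the values were seen: Acta1, Actn2, Myh3, Myl1, Myl4, Mylpf, Tnnc1 and Tnnc2. In WT replicate 1 the 5 richest cells held 73.0% to 97.9% of the UMIs of these 8 genes, and 35.2% to 53.8% of those of Actc1, Ttn, Neb, Des and Tnnt1.

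**Figure D5:**
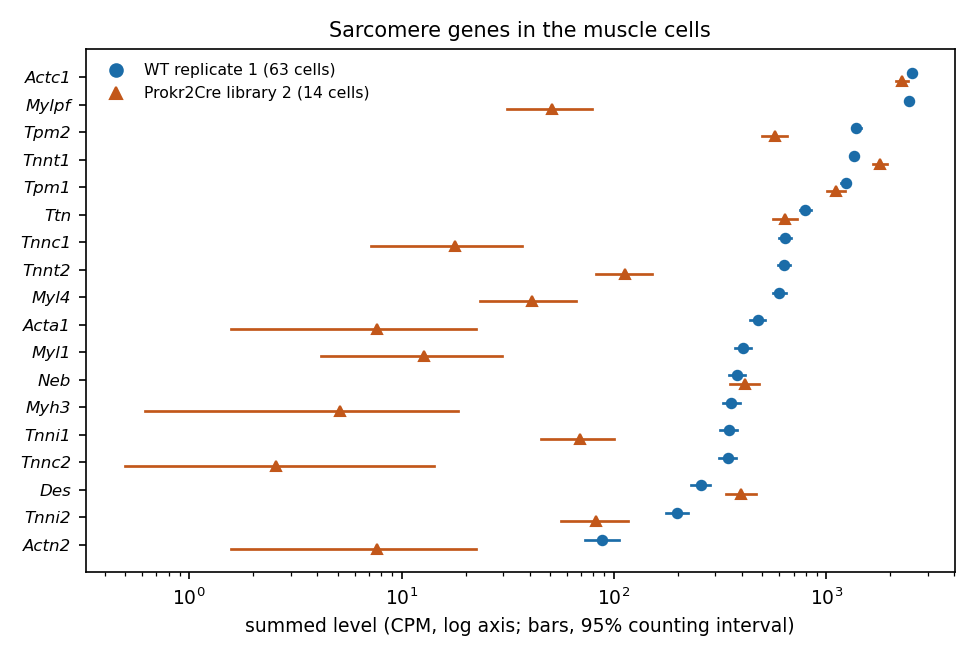
Summed level (x axis, CPM, log axis) of sarcomere genes (y axis) in the muscle cells of WT replicate 1 (blue circles) and Prokr2Cre library 2 (orange triangles), for genes with at least 50 CPM in the former. Bars are 95% counting intervals. Actc1, Ttn, Neb, Des, Tnnt1 and Tpm1 lie close together, and Mylpf, Acta1, Myh3, Tnnc1 and Tnnc2 lie far lower in Prokr2Cre library 2.

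Of the progenitor list, 5 of 7 measured genes were higher past 2-fold in the muscle cells of Prokr2Cre library 2 and none was lower, against 16.3% higher over all genes. Since 4 of the 7 reached 50 CPM in that library alone, and 1 of the other 3 was higher, the count is not read further. Isl1 stood at 120 against 33.0 CPM (3.64, 2.37 to 5.59) and Eya4 at 197 against 26.6 CPM (7.41, 4.94 to 11.3). Outside that list, Pitx1 stood at 187 against 53.2 CPM (3.51, 2.51 to 4.92). Of 8 measured growth factor genes, 6 reached 50 CPM in Prokr2Cre library 2 alone, so that their direction was fixed by the minimum, and neither of the other 2 was higher past 2-fold. Among the 6, the receptor genes Fgfr4 and Met stood at 110 against 28.0 CPM (3.93, 2.49 to 6.22) and 66.5 against 12.9 CPM (5.14, 2.71 to 9.96), and the growth factor gene Igf2 at 427 against 39.5 CPM (10.8, 7.93 to 14.9). Lbx1 had 6 UMIs in 6 of the 14 cells against 1 UMI in the 63 (21.4, 2.59 to 983). Of 18 measured cell-cycle genes, 6 were higher, none was lower and 12 were within 2-fold. Of the 16 that reached 50 CPM in both libraries 5 were higher, Top2a among them at 670 against 212 CPM (3.16, 2.67 to 3.75). Pax7 (0.833, 0.390 to 1.63) and Msc (0.785, 0.551 to 1.10) were within 2-fold. Part of this list also differed outside the muscle cells: in other kept cells Igf2 stood at 220 CPM in Prokr2Cre library 2 against 71.1 CPM in WT replicate 1, and Eya4 at 59.6 against 20.7 CPM. Isl1 did not follow, at 3.93 against 9.08 CPM in other cells, nor did Met, at 2.37 against 5.06 CPM.

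The gene that drives Cre was nearly absent from these cells. Prokr2 had 1 UMI in the 14 muscle cells of Prokr2Cre library 2, 2.56 CPM, against 82.9 CPM in the other cells of the library. It had none in the 63 of WT replicate 1. Over all kept cells Prokr2 stood at 81.0 CPM in Prokr2Cre library 2 and 1.74 CPM in library 1 (46.5, 35.2 to 62.6). The part of sorting in this, and in the muscle cells, was not tested. At least 2 UMIs of each of 2 neuron markers were held by 5 of the 14 cells. Over all 14, Stmn2 stood at 125 CPM, with a UMI in 6 cells, against 1160 CPM in the other cells of the library, and the part of these markers in the result was not tested.

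The muscle cells held a large part of the difference in muscle genes between the Prokr2Cre libraries, and a difference remained without them. Actc1 had 995 UMIs in Prokr2Cre library 2 and 7 in library 1, a ratio in CPM of 258 (125 to 644). The 14 muscle cells held 888 of these 995 UMIs, and the 2 muscle cells of library 1 held 3 of the 7. Without them the ratio was 49.7 (18.9 to 186). The ratio of Des went from 12.5 (8.36 to 19.3) to 5.29 (2.75 to 10.8) and that of Ttn from 8.91 (6.75 to 11.9) to 2.28 (1.47 to 3.55). Outside the muscle cells, Mymx had 3 UMIs in library 2 and 2 in library 1, a ratio of 2.79 (0.319 to 33.4).

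The few muscle cells of the remaining libraries, of which all but 3 had high doublet scores, held Actc1, Tnnt1 and progenitor genes, and none held Acta1. In WT replicate 2, Actc1 had 63 UMIs in 4 of 8 cells (655 CPM against 0.585 CPM in other cells) and Msc had 21 UMIs in 6 of 8. In WT replicate 5, Actc1 had 70 UMIs in 3 of 4 cells (684 CPM) and Tnnt1 had 112 in 4 of 4. Acta1 had no UMI in the muscle cells of WT replicates 2, 4 and 5 or of Prokr2Cre library 1, and Mylpf had 9 UMIs in WT replicate 2 and 7 in replicate 5. Both cells of Prokr2Cre library 1 held Pax7, Msc and Isl1. Single values stand out: the cell of WT replicate 2 with 19 Myog UMIs had a sarcomere level of 11800 CPM and a cell-cycle level of 119 CPM, and its 2 cells without Myog stood at 1820 and 1150 CPM of sarcomere genes.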

How the data were processed

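Gene-by-cell UMI counts were deposited per library as filtered 10x matrices, and the values are raw counts per the file headers. In the headers, WT replicate 1 has Cell Ranger 6.0.1, the other WT replicates have 7.0.0 and the Prokr2Cre libraries have 6.1.2. The submitters' processing notes name Cell Ranger 4, Seurat 4.3.0 and the build mm10, so the versions differ between the sources. Whether intronic reads were counted is not given in the sources used here, and it may differ between Cell Ranger versions.

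The 30323 genes common to the files were used. Cells under 500 genes or over 10% mitochondrial UMIs were removed. Members and gene lists were chosen with earlier results of these data known. Counts were summed over the cells of each set and scaled to CPM. Ratios were taken as log2 of CPM plus 10, for genes with at least 50 CPM in either set, and a gene was past the fold at 2-fold. Sums of counts have exact Poisson intervals, shares have exact binomial intervals and ratios have exact conditional intervals, all at 95% and for counting error only. No test between sets or groups was run and no p-value is given, and outlying WT captures were looked for by Dixon's gap over range. The text names the genes of the fixed lists, the 15 genes with the highest and the 15 with the lowest log2 ratio between Myog-positive and Myog-zero cells, the 15 outside the lists with the highest ratio to other cells, and those most often present in the Prokr2Cre muscle cells. Some listed genes are not reported here. Endothelial cells were those with at least 2 endothelial markers that were not muscle cells by the rule.

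Doublets were kept. Scrublet's automatic threshold marked at most 0.3328% of barcodes per library and was not used, and an alternative removed the highest scores at 0.8% per 1000 barcodes. Only the ratio and interval steps were checked on simulated counts. The simulation had no spread between cells, no selection by rule genes and no doublets, so it does not cover these. Python 3.11.15, scanpy 1.11.5, numpy 2.4.6, scipy 1.17.1 and pandas 2.3.3 were used. Gene positions come from GENCODE on GRCm38 and promoter windows from RefSeq.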

Additional observations from a re-analysis of the deposited data

Results flagged for a closer look

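WT replicate 1 lay far from the other 3 WT captures in 3 of the 7 measures examined. The share of kept cells that were muscle cells was 0.809% there and 0.0142% to 0.123% in WT replicates 2, 4 and 5. Over all kept cells Myod1 stood at 2.53 CPM, against 0.0411 to 0.375 CPM in the others, and Myog at 12.9 CPM, against 0.123 to 1.13 CPM. In each case the gap to the nearest capture, divided by the range, was above Dixon's critical value for 4 samples, which chance exceeds in about 1 in 20 groups. The measures are not independent of each other or of the choice of cells, since Myod1 and Myog chose them, so this restates where the muscle cells lay and adds no support. Myf5, Chrna1, the sarcomere list and the median depth did not pass the same limit.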

How the results depend on the processing

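The mean muscle share of 0.256% ranged from 0.0712% to 0.336% when 1 WT capture was left out, the lowest without WT replicate 1, and the Myog-positive share of 78.9% ranged from 69.2% to 80.6%. The Myog-positive share was 95% with at least 3 of the 4 rule genes, 87.8% without muscle cells that held any other class and 100.0% after thinning to 2000 UMIs. The 236 genes past 2-fold between Myog-positive and Myog-zero cells became 594 with a minimum of 20 CPM and 893 without one, and the 457 genes past 2-fold between muscle cells and others became 848 with a minimum of 20 CPM. The sarcomere median of 3.37 became 2.73 with a minimum of 20 CPM, 1.98 without one, 4.70 with a pseudocount of 1 CPM, 4.01 with counts summed over WT captures and 4.06 with both sets held to the other 3 rule genes, the last chosen after the data were seen. It stayed above 0 in all of these, and the cell-cycle median lay between -0.34 and -0.19 under the 11 alternatives that could change it, while 5 that leave WT replicate 1 as it was could not. The cause of these shifts was not tested. The contrast by Myog could not be run with at least 3 of 4 rule genes or without all other classes, since fewer than 10 Myog-zero cells were left, and without WT replicate 1 no gene contrast could be run. No paired analysis was possible because each contrast takes 1 library on a side, replicate numbers tie no WT library to a Prokr2Cre library and no test between groups was made. The small number of Myog-zero cells limits that contrast: genes without a UMI in the 12 cells have only a bound at 3 UMIs, and ratios that rest on 1 to 3 UMIs there have wide intervals.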

Other observations

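Outside the lists, a few abundant genes were present in every muscle cell of both Prokr2Cre libraries. Ppp1r14b, a phosphatase inhibitor gene, stood at 2690 and 2650 CPM in the muscle cells of Prokr2Cre libraries 1 and 2, against 474 and 502 CPM in their other cells, and at 3060 against 538 CPM in WT replicate 1, in 63 of 63 muscle cells. It did not differ between Myog-positive and Myog-zero cells, at 3070 and 3010 CPM. Abracl stood at 777 and 762 CPM against 186 and 130 CPM, and Cycs, which encodes cytochrome c, at 672 and 680 CPM against 262 and 228 CPM.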
